A study of Mus musculus with 12 samples.

Results

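The comparison described here is that of Srrm4 knockout (KO) with control hippocampus from mouse embryos at stage E18.5. Its members are all samples labelled hippocampus, 6 of the 12 in the series, which reach 4 of the 8 deposited gene tables because runs 1 and 2 of replicate 1 are covered by a single table. With 1 library per table, 2 control libraries (control 1 and control 2) were compared with 2 KO libraries (KO 1 and KO 2). The other samples are cortex of the same genotypes and age. They enter here for the estimate of spread and for tests of whether a difference in hippocampus differed from that in cortex. Cortex medians of some lists are also set beside those of hippocampus, without a test. Control animals are labelled wild type. The KO animals descend from a conditional Srrm4 allele of the EUCOMM collection, carried by 2 stem cell clones that were aggregated with outbred ICR morulae, per the labels' protocols. The background was C57Bl/6N, and exons 7 and 8 were excised by crossing to the CMV-cre line B6.C-Tg(CMV-cre)1Cgn/J, so that the deletion is not limited to neurons or to hippocampus. The labels do not say whether a library is 1 embryo or a pool, which clone gave rise to it, whether controls are littermates or carry Cre, or what sex the embryos were. A p-value therefore rests on how far these libraries lie apart, and part of that may be technical.

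Srrm4, also known as nSR100, is a splicing regulator with serine and arginine repeats that is largely restricted to neurons. It is known to promote the inclusion of neuronal exons, among them microexons, very short exons that often keep the reading frame and lie in proteins of vesicle transport, the cytoskeleton and synapses. It is also known to alter splicing of the transcriptional repressor REST so that REST activity in neurons is reduced. In the hippocampus late in gestation, pyramidal neurons of the CA fields are in place, granule neurons of the dentate gyrus are being born, Cajal-Retzius cells line the hippocampal fissure, and GABAergic interneurons, born in the ventral forebrain, are migrating in.

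The deleted part of the gene and the kind of exon that the protein acts on are shown first. The labels name exons 7 and 8 without a transcript, and the sequences below are exons 7 and 8 of Srrm4-201 in GENCODE M21 (GRCm38, minus strand), at chr5:116467768-116467860 and chr5:116467432-116467588. Capitals mark the exon and lower case the 20 bases of transcript on each side. Exon 7 has 93 bases and exon 8 has 157, both wholly coding, and their 250 bases leave a remainder of 1 when divided by 3.
Srrm4-201 exon 7: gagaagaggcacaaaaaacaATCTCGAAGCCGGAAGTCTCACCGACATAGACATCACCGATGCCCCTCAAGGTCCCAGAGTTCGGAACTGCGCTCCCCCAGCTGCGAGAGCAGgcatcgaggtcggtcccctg
Srrm4-201 exon 8: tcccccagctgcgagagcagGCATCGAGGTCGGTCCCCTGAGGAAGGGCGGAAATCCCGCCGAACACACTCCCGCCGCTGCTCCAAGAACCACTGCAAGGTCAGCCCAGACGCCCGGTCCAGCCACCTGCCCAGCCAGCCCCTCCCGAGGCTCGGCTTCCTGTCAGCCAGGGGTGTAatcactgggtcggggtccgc
Of 50 genes listed as hosts of neuronal microexons, 46 hold at least 1 annotated internal coding exon of 3 to 27 bases in GENCODE M21. These hosts hold 89 such exons, and the length of 79 is a multiple of 3. The following exons, again in capitals with 20 bases of transcript on each side, run from 6 to 27 bases. They lie in Apbb1, an adaptor of amyloid precursor protein (chr7:105565946-105565951, minus strand), Kdm1a, a histone demethylase (chr4:136563438-136563449, minus strand), the tyrosine kinase Src (chr2:157458843-157458860, plus strand), the transcription factor Mef2c (chr13:83654598-83654621, plus strand) and the formin Daam1 (chr12:71958747-71958773, plus strand).
Apbb1-209 exon 8: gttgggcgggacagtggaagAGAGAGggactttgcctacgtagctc
Kdm1a-208 exon 7: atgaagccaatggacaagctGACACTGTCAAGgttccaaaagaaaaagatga
Src-202 exon 6: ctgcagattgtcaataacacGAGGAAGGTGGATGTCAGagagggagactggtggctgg
Mef2c-203 exon 8: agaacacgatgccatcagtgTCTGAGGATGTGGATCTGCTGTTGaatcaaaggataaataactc
Daam1-201 exon 16: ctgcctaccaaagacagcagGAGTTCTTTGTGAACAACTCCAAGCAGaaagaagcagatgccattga
The deposited tables give 1 value per gene, so the use of these exons was not measured, and what follows concerns gene totals.

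Total counts were 121366651 and 68649479 in controls and 122744872 and 58210499 in KO (replicates 1 and 2), so that a count of 3 corresponds to 0.0244 to 0.0515 CPM (counts scaled to library depth). Defining genes of hippocampus were present in all 4 libraries. Zbtb20, a transcription factor of hippocampal neurons, lay at 68.11 and 58.75 RPKM (counts scaled by gene length and library depth) in controls and 74.69 and 66.22 in KO, and Prox1, of dentate granule neurons, at 33.84, 25.72, 34.29 and 29.81 RPKM in the same order. Libraries of a genotype also differed among themselves. The first principal component of the 4 libraries carried 45% of the variance and set KO 1 (17.97) against KO 2 (-12.91), with control 1 at 1.7 and control 2 at -6.76. The second, with 31.3%, placed both controls (15.33 and 1.19) above both KO libraries (-7.49 and -9.03). In KO 1, mitochondrially encoded genes took 4.40% of counts against 3.2% to 3.39% in the other hippocampus libraries. Control 2 held 152.4 RPKM of Ttr, the transthyretin gene of the choroid plexus, against 13.42 to 26.83 elsewhere, and 14 choroid plexus genes summed to 234 CPM there against 60.0 to 79.8. It also had the highest levels of Isl1, a striatal and ventral forebrain marker (1.36 against 0.18 to 0.29 RPKM), and of Dlx6. Y-linked genes summed to 39.7 and 148 CPM in controls and to 49.9 and 0.430 CPM in KO, so the sexes of replicate 2 differ between the genotypes or are mixed in different shares. The sums also differed between the 2 libraries of each genotype, so the same holds within controls and within KO. The part of these differences in the results below was not tested, except where values without a library are given.

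**Figure D1:**
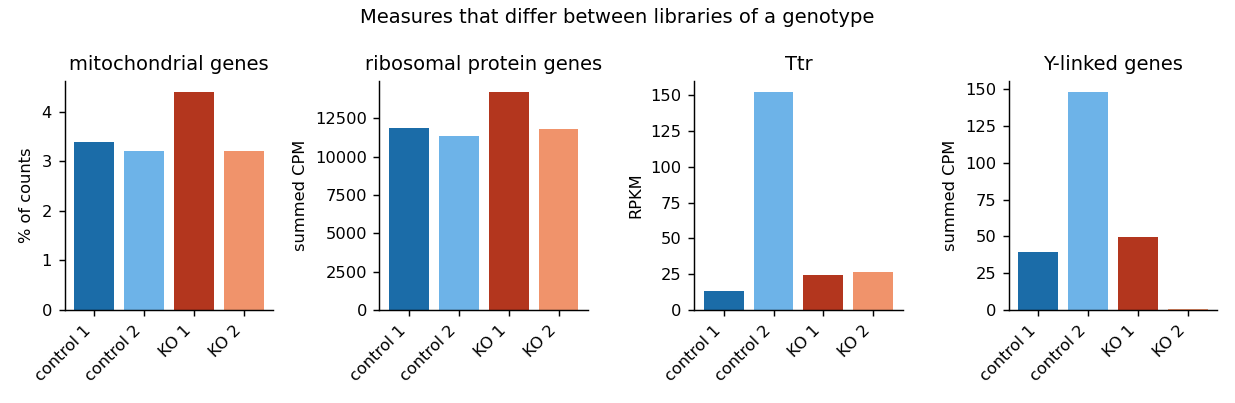
Bars give, for each of the 4 hippocampus libraries, the percentage of counts in mitochondrially encoded genes, the summed CPM of cytosolic ribosomal protein genes, the RPKM of Ttr, and the summed CPM of Y-linked genes. KO 1 is highest in the mitochondrial and ribosomal panels, control 2 in Ttr (152.4 RPKM) and Y-linked genes (148 CPM), and KO 2 has 0.430 CPM of Y-linked genes.

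Across the 16111 genes tested, 4 passed an adjusted p of 0.05 (0.0248%), 2 higher (0.0124%) and 2 lower (0.0124%) in KO. Srrm4 and Napb fell, and En2 and Hddc3 rose. The 4 hippocampus libraries fitted alone gave 2 calls, Srrm4 and En2, and DESeq2 gave 18. Srrm4 (ENSMUSG00000063919) lay at 26.03 and 27.86 RPKM in controls and at 5.68 and 6.16 in KO, on 23467 and 14206 counts against 5181 and 2664. Both KO libraries stood far below both controls, and reads of the gene were still counted in KO. This is a log2 fold change of -2.22 (SE 0.10) with an edgeR adjusted p = 0.00025 by its quasi-likelihood test, in the direction of the genotype labels. Reads of the 2 excised exons cannot be told apart from reads of the other exons in a gene total.

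Napb (ENSMUSG00000027438), which encodes beta-SNAP, an adaptor that brings the ATPase NSF to used SNARE complexes so that they can be taken apart, lay at 25.69 and 25.18 RPKM in controls and at 15.99 and 15.49 in KO. The 2 libraries of each genotype were close to each other and the genotypes did not overlap. This is a log2 fold change of -0.72 (SE 0.08) with an edgeR adjusted p = 0.048. GENCODE M21 lists a Napb transcript of the nonsense-mediated decay class, Napb-202, that shares 9 of its 10 exons with the protein-coding transcript Napb-201 and lacks exon 4 of the latter. That exon (chr2:148707159-148707205, GRCm38, minus strand) is printed in capitals, with 20 bases of transcript on each side, because its 47 bases are not a multiple of 3 and the gene totals join both transcripts.
Napb-201 exon 4: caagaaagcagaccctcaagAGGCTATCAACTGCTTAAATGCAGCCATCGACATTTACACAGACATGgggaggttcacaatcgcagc
Which transcript the counts came from was not measured. Of the 5 neighbours of Napb that were tested, 0 had an unadjusted p under 0.05.

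En2 (ENSMUSG00000039095), a homeobox transcription factor of the midbrain-hindbrain boundary and cerebellum, was nearly absent in controls, with 0.04 and 0.08 RPKM on 15 and 18 counts. In KO it lay at 1.42 and 1.63 RPKM on 608 and 330 counts. This is a log2 fold change of 4.85 (SE 0.26) with an edgeR adjusted p = 0.00053. Alleles of this collection commonly carry En2 splice acceptor sequence in their cassette, and gene totals do not tell reads of an engineered allele from reads of the En2 locus. En1, the paralogue of En2, lay at 0.04 RPKM in both controls and 0.05 in both KO libraries. Of the 11 genes tested in a list of 20 midbrain and hindbrain genes, En2 was the only 1 that passed. With En2 included, 6 of the 11 were positive. Both KO libraries lay above both controls for 4 and below both for 1, next to 13.3% and 15.9% of all genes. An unadjusted p under 0.05 was found for 2 of the 11, both higher in KO. The neighbour Cnpy1 had a mean of 0.055 RPKM in either genotype. Of the 9 neighbours of En2 that were tested, 1 had an unadjusted p under 0.05, the serotonin receptor gene Htr5a (1.03 ± 0.071 RPKM in controls and 0.835 ± 0.0071 in KO, SD, n = 2 each, log2 fold change -0.33, SE 0.14, with edgeR adjusted p = 0.992). The share of all genes was 3.81%. Genotypes did not overlap for 6 of the 9, with Rbm33 higher and Dpp6, Htr5a, Insig1, Shh and Lmbr1 lower in KO. The count without overlap was 2 of 5 around Napb, 2 of 10 around Hddc3 and 2 of 7 around Srrm4.

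Hddc3 (ENSMUSG00000030532) encodes an HD-domain enzyme that hydrolyses the alarmone ppGpp and NADPH. It lay at 9.51 and 11.03 RPKM in controls and at 23.28 and 21.25 in KO, so that the lowest KO value stood well above the highest control. This is a log2 fold change of 1.09 (SE 0.12) with an edgeR adjusted p = 0.048. All 10 of its neighbours were tested and 0 had an unadjusted p under 0.05. Around Srrm4 itself 7 neighbours were tested, also with 0 under 0.05, the nearest measured being Hspb8 and Suds3 with log2 fold changes of -0.06 (SE 0.11) and -0.03 (SE 0.06). Napb and Hddc3 passed narrowly. Both missed the threshold when any of the 8 libraries was left out, with adjusted p from 0.108 to 0.727 for Napb and from 0.0762 to 0.715 for Hddc3 (edgeR), while Srrm4 and En2 passed in all 18 alternatives run.

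**Figure D2:**
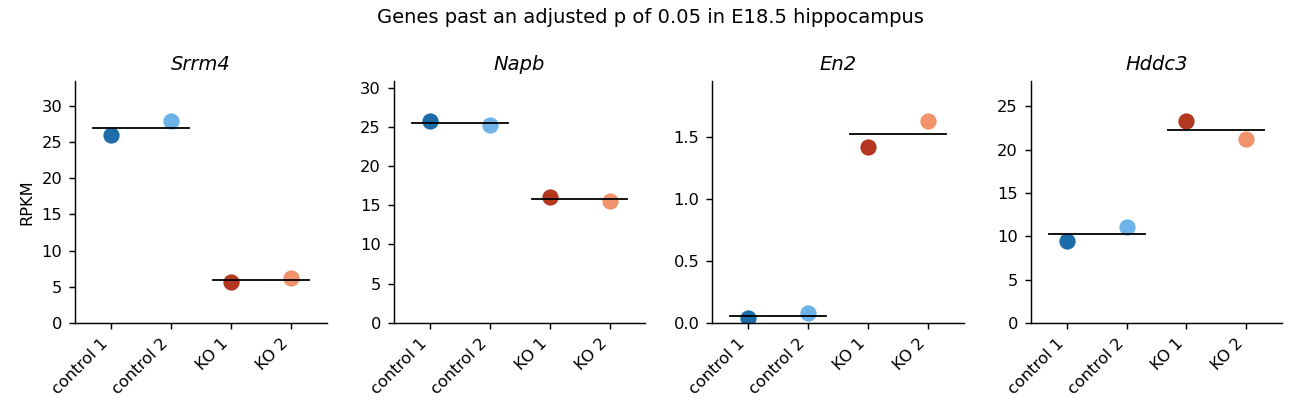
Points give the RPKM of Srrm4, Napb, En2 and Hddc3 in each hippocampus library, on linear axes from 0, and lines the mean of the 2 libraries of a genotype. Srrm4 and Napb are lower and En2 and Hddc3 higher in both KO libraries than in both controls.

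The 4 calls stand in a comparison with few small p-values. An unadjusted p under 0.05 was found for 614 genes (3.81%), 252 higher (1.56%) and 362 lower (2.25%), next to the 805.55 that a share of 0.05 of all genes would be. Both KO libraries lay above both controls, on counts scaled for depth and composition (TMM), for 2135 genes (13.3%) and below both for 2569 (15.9%), (these are called above and below from here on), and 48.6% of the log2 fold changes were positive. Within replicate number 1 (KO 1 over control 1) and within replicate number 2, numbers that the labels do not tie to a litter or day, the log2 ratios were unrelated over the 16111 genes (Pearson's r = 0.013, Spearman's rho = -0.0058, same sign for 49.3%). These are values across genes, which are not independent replicates. The spread of the ratios was 0.23 (SD over genes) in replicate 1 and 0.19 in replicate 2, next to 0.20 between the 2 controls and 0.25 between the 2 KO libraries.

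**Figure D3:**
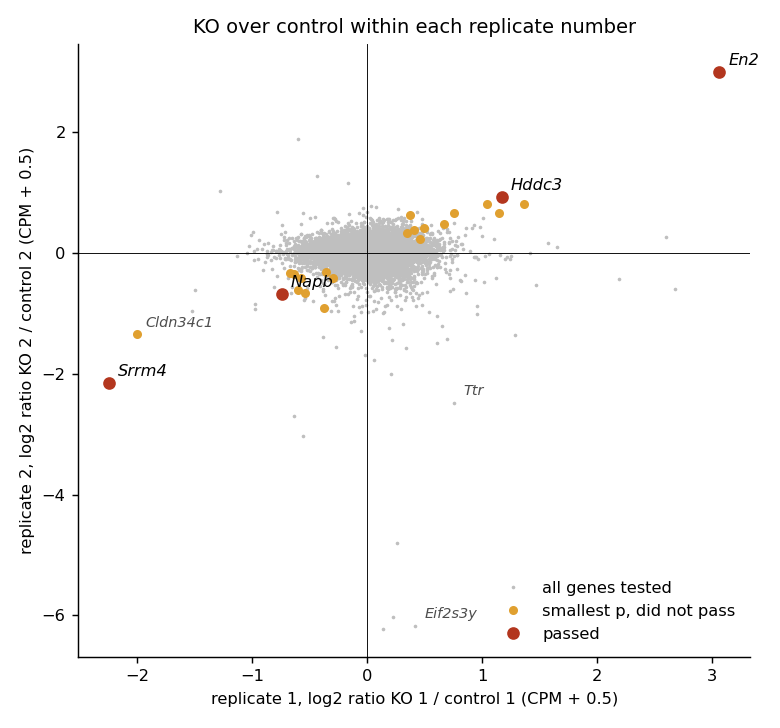
Each point is a gene, with the log2 ratio of KO 1 to control 1 on the horizontal axis and of KO 2 to control 2 on the vertical axis (CPM plus 0.5), red for genes that passed and orange for the 20 with the smallest p-values that did not. Most genes form a cloud around 0 with no slope, the 4 genes that passed lie away from 0 with the same sign in both replicates, and Ttr and the Y-linked gene Eif2s3y lie far out in replicate 2.

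Of the genes that did not pass, the 20 with the smallest p-values and a mean of at least 1 RPKM in a genotype are given as values only. All 20 had both KO libraries on the same side of both controls, which the choice by p favours. With DESeq2, 11 of them passed (Gemin8, Micu2, Antxr1, Proser3, Col11a1, Duxbl3, Cldn34c1, Sst, Nrsn2, Gng4 and AI593442). Gemin8, a subunit of the SMN complex that assembles spliceosomal ribonucleoproteins, lay at 1.44 and 1.73 RPKM in controls and 4.95 and 4.31 in KO (log2 fold change 1.54, SE 0.20, with edgeR adjusted p = 0.202). Of the 9 SMN complex genes, Gemin8 was the only 1 with an unadjusted p under 0.05, and the other 8 lay between -0.15 and 0.06. Micu2, a gatekeeper of the mitochondrial calcium uniporter, lay at 30.39 and 33.16 RPKM in controls and 44.86 and 43.83 in KO (log2 fold change 0.45, SE 0.07, with edgeR adjusted p = 0.498). The 7 other uniporter genes had negative values, led by Micu3, another gatekeeper (8.51 and 8.42 RPKM against 7.55 and 7.04, log2 fold change -0.24, SE 0.08), and Mcub, an inhibitory pore subunit (5.36 and 5.06 against 3.35 and 4.67 RPKM, log2 fold change -0.42, SE 0.17).

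The other genes on the higher side are given by what they encode, not by rank. The collagen gene Col11a1 lay at 10.14 and 12.82 RPKM in controls and 18.03 and 20.15 in KO (log2 fold change 0.71, SE 0.16). Col5a2, another fibrillar collagen, lay at 6.99 and 7.57 against 9.70 and 9.81 RPKM (0.39, SE 0.08), and the collagen-binding receptor Antxr1 at 5.97 and 5.76 against 8.13 and 8.84 RPKM (0.50, SE 0.09). Mfap4, a microfibril-associated glycoprotein, lay at 60.38 and 65.94 against 80.31 and 82.39 RPKM (0.34, SE 0.08). Proser3 (0.58, SE 0.10) and Lrch3 (0.35, SE 0.08) completed the single-copy genes of this side. Duxbl3 (1.74, SE 0.25) and Tmem254c (1.17, SE 0.27) belong to groups of near-identical copies on chromosome 14, where reads can be split between copies, so their values are uncertain. Adjusted p-values of these 8 genes ran from 0.25 to 0.992 (edgeR).

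On the lower side, Cldn34c1, an X-linked claudin-family gene with related copies on the same chromosome, had 191 and 55 counts in controls and 2 and 0 in KO. Summed over the genotypes, its share of counts in KO was 0.0085 times that in controls (95% exact interval 0.0010 to 0.031, counting error only). Its adjusted p was 0.245 (edgeR). It passed under 4 of the 18 alternatives, DESeq2 among them. The only other gene with at least 50 counts in a genotype and at most 3 in the other was Gm6356, on chromosome 14, with 110 counts in KO 1, 0 in KO 2 and 1 and 0 in controls, so its difference comes from 1 library.

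Sst, the somatostatin gene of an interneuron class, lay at 41.26 and 40.10 RPKM in controls and at 26.84 and 31.23 in KO (log2 fold change -0.52, SE 0.09, with edgeR adjusted p = 0.583). The rest of the lower side is likewise given by what the genes encode. The G protein subunit genes Gng4 and Gnal lay at 9 and 11.21 against 5.61 and 6.94 RPKM (-0.72, SE 0.15) and at 16.12 and 16.02 against 10.85 and 12.46 RPKM (-0.49, SE 0.11). Glra2, a glycine receptor subunit of immature neurons, lay at 21.52 and 21.46 against 17.53 and 17.08 RPKM (-0.34, SE 0.07), and the orphan receptor gene Gpr139 at 2.56 and 2.46 against 1.62 and 1.7 RPKM (-0.63, SE 0.14). Nrsn2, a neuronal vesicle membrane protein (-0.89, SE 0.16), Ngef, an ephexin that links ephrin receptors to small GTPases (-0.37, SE 0.08), Eps8l1 (-0.70, SE 0.14) and AI593442 (-0.67, SE 0.14) made up the rest. These did not pass, with adjusted p from 0.661 to 0.992 for Gng4, Gnal, Glra2, Gpr139, Nrsn2, Ngef, Eps8l1 and AI593442 (edgeR).

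The lists below describe what the named genes belong to. Their members were counted against the shares over all genes (48.6% positive, 13.3% above, 15.9% below), and Srrm4, Napb and En2 were the only members that passed. Changes in the number of cells of a type and in RNA per cell cannot be told apart in tissue samples.

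Among splicing genes, 0 of 30 regulators passed, 10 had positive and 20 negative values, and the median was -0.05. Mbnl2, a regulator of exon use in maturing brain, lay above in both KO libraries (9.08 and 9.31 RPKM in controls, 11.27 and 11.07 in KO, log2 fold change 0.25, SE 0.08, with edgeR adjusted p = 0.992). Srrm3, the closest relative of Srrm4, with overlapping targets, lay at 11.28 and 12.26 RPKM in controls and 12.11 and 14.08 in KO (0.12, SE 0.10), and the genotypes overlapped. Of the 50 hosts of neuronal microexons, 0 passed, 21 were positive, 9 lay above and 3 below, and the median was -0.02 (log2 fold changes from -0.27 to 0.40). Rims2, which organises vesicle release sites, was the only 1 with an unadjusted p under 0.05 (6.31 and 6.04 RPKM in controls, 5.55 and 4.93 in KO, -0.27, SE 0.11). Ptprs, a receptor phosphatase of synapses, lay at 175.7 and 176.4 RPKM in controls and 193.6 and 198.2 in KO (0.12, SE 0.09). Mef2c had the highest value of the list, 0.40 (SE 0.23), carried by KO 1 alone (13.94, 13.32, 24.04 and 12.79 RPKM), and without that library its log2 fold change was -0.10. Over all 1023 tested genes with an annotated microexon of 3 to 27 bases, 506 were positive and the median was -0.001. Among the 315 with a microexon of 3 to 15 bases, 133 were positive, 40 lay above and 53 below, 1 higher and 10 lower genes had an unadjusted p under 0.05, and the median was -0.02.

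Of 33 neuronal genes known to be repressed by REST, 5 were positive and 28 negative, 1 lay above and 14 below, and the median was -0.14. The secretory granule gene Scg2 (13.51 and 12.43 RPKM in controls, 10.76 and 10.44 in KO, log2 fold change -0.32, SE 0.09) and Grin1, the obligatory NMDA receptor subunit (22.04 and 22.72 against 18.92 and 20.16 RPKM, -0.23, SE 0.09), were lower in both KO libraries. The complexin gene Cplx1 (53.42 and 51.47 RPKM in controls) lay at 37.33 in KO 1 and at 47.54 in KO 2. This unevenness was general. The median of the list was -0.22 in replicate 1 and -0.04 in replicate 2. It was -0.05 without KO 1, -0.11 without control 1, and 0.007 in cortex.

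Synaptic lists had the same form. In the list of SNARE recycling and fusion, which holds Napb, 17 of 19 genes were negative, 11 lay below and 0 above, and the median was -0.19. Nsf, the ATPase that acts with the SNAP proteins, lay at 35.68 and 33.21 RPKM in controls and at 24.12 and 29.63 in KO (log2 fold change -0.39, SE 0.12, with edgeR adjusted p = 0.992). The median was -0.34 in replicate 1 and -0.06 in replicate 2, whereas Napb had -0.75 and -0.69, almost the same in both. Among 21 genes of vesicle priming and the active zone, 9 lay below and 1 above (median -0.13). Rims1 (8.23 and 9.12 against 6.72 and 7.49 RPKM, -0.32, SE 0.09) and Rims3 (13.95 and 13.60 against 11.24 and 11.87 RPKM, -0.28, SE 0.08), which scaffold release sites, lay below together with Rims2. Synaptic vesicle proteins had a median of -0.27 in replicate 1 and 0.01 in replicate 2, and neurite and cytoskeleton genes of -0.29 and -0.01. Synaptic adhesion genes (-0.19 and -0.0008) and potassium channels (-0.15 and 0.01) split in the same way, with the lower medians in replicate 1. That replicate holds control 1 as well as KO 1. Without KO 1 the medians were -0.08 for SNARE genes, -0.06 for the active zone, -0.06 for synaptic vesicles, -0.06 for neurites and -0.07 for synaptic adhesion. Without control 1 they were -0.14, -0.09, -0.09, -0.08 and -0.06 in the same order. Potassium channels had -0.06 without KO 1 and -0.02 without control 1.

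Secreted peptides and channels gave further examples. Of 23 neuropeptide and granin genes, 8 were positive, 9 lay below and 1 above (median -0.10). Vgf, a granin whose peptides are released from dense-core vesicles, lay at 11.49 and 9.11 RPKM in controls and at 5.38 in KO 1 and 8.68 in KO 2 (log2 fold change -0.59, SE 0.24). Of 19 synaptic adhesion genes, 8 lay below and 1 above. Nrxn3, a presynaptic neurexin, lay at 8.48 and 8.55 RPKM in controls and 6.82 and 6.95 in KO (-0.34, SE 0.13), about alike in both replicates, and Cbln4, a secreted neurexin ligand, at 1.80 and 1.80 against 1.15 and 1.60 RPKM (-0.44, SE 0.16). Of 25 sodium and calcium channel genes, 11 were positive, 7 lay above and 4 below (median -0.01). The calcium channel subunits Cacnb4 (6.22 and 7.32 RPKM in controls, 8.86 and 8.31 in KO, 0.31, SE 0.11) and Cacng3, an AMPA receptor auxiliary protein (5.42 and 6.13 against 3.69 and 5 RPKM, -0.45, SE 0.15), had the smallest p-values and opposite signs. Of 33 potassium channel genes, 12 were positive, 2 lay above and 9 below, among them Dpp10, an auxiliary subunit of A-type channels (6.59 and 7.26 against 6.14 and 4.44 RPKM, -0.41, SE 0.15).

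Of 29 neurite and cytoskeleton genes, 27 were negative, 12 lay below and 1 above. The tubulin gene Tubb2a lay at 695.2 and 697.1 RPKM in controls and 587 and 635.9 in KO (log2 fold change -0.22, SE 0.08), and the growth cone gene Gap43 at 467.1 and 511.1 against 386 and 466.6 RPKM (-0.23, SE 0.11). Of 32 axon guidance genes, 14 were positive, 2 lay below and 0 above, and 0 had an unadjusted p under 0.05. Of 19 synaptic vesicle genes, 7 lay below and 0 above, led by Sncb, which encodes beta-synuclein (24.92 and 22.64 RPKM in controls, 16.61 and 19.37 in KO, -0.44, SE 0.13), and Synj1, a phosphatase of vesicle recycling (24.36 and 26.87 against 22.30 and 23.86 RPKM, -0.18, SE 0.07).

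For receptors, 15 of 22 glutamate receptor genes were negative, 7 lay below and 3 above (median -0.15). Grin3a, an NMDA receptor subunit of immature synapses, lay at 4.56 and 4.93 RPKM in controls and 4.16 and 3.01 in KO (log2 fold change -0.43, SE 0.16), and Grin2c at 0.88 and 1.11 against 1.32 and 1.43 RPKM (0.44, SE 0.17). GABA-A receptor subunits, the receptors of the main inhibitory transmitter, were negative for 11 of 12 genes, with 4 below and 0 above. Gabra2 lay at 76.19 and 69.47 RPKM in controls and 60.65 and 59.17 in KO (-0.31, SE 0.12), and Gabra5, a subunit rich in hippocampus, at 44.45 and 40.22 against 30.03 and 38.64 RPKM (-0.33, SE 0.12). Here the medians were alike in both replicates (-0.09 and -0.15). Over all 4 libraries the median of KO over control was -0.11, and it was -0.06, -0.18, -0.23 and -0.09 without control 1, control 2, KO 1 and KO 2. Replicate 2 over replicate 1 gave medians farther from 0, -0.15 in controls and -0.21 in KO.

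Genes of GABAergic interneurons had mostly negative values. Of 18 interneuron transcription factors tested, 16 were negative, 9 lay below and 0 above, 6 had an unadjusted p under 0.05, and 0 passed with edgeR (median -0.16), while Dlx6 passed with DESeq2 (adjusted p = 0.027) and without control 1. The 6 were Dlx1, Dlx2, Dlx5 and Dlx6, homeobox genes that specify and drive the migration of these cells, and Sp8 and Sp9, zinc finger factors of interneurons from the ganglionic eminences. Dlx2 lay at 9.58 and 10.67 RPKM in controls and at 6.55 and 8.87 in KO (log2 fold change -0.43, SE 0.14), and Dlx1 at 35.22 and 45.81 against 30.74 and 34.70 RPKM (-0.33, SE 0.11). Dlx6 lay at 1.38 RPKM in control 1, 3.36 in control 2 and 0.97 and 0.91 in KO (-1.31, SE 0.35), and Sp8 at 2.29, 3.74, 1.85 and 1.92 RPKM (-0.70, SE 0.20). For Dlx1, Dlx6 and Sp8 the controls differed from each other more than control 1 did from KO. Leaving out 1 library at a time gave log2 fold changes from -0.49 to -0.15 for Dlx1. Without control 2 the log2 fold changes of Dlx6 and Sp8 were -0.60 and -0.33. Control 2 is also the library with the most Isl1. Leaving out control 1, control 2, KO 1 or KO 2 gave list medians of -0.16, -0.15, -0.13 and -0.31, and within the replicates the median was -0.25 and -0.06.

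Of 9 genes of GABA synthesis, transport and chloride carriers, 7 were negative, 3 lay below and 0 above, and the median was -0.22 (-0.28 and -0.10 in the replicates, and -0.08 without KO 1). The 3 below were Gad1, Slc32a1 and Gad2. Gad1, which makes GABA, lay at 22.63 and 29.35 RPKM in controls and 17.89 and 21.21 in KO (log2 fold change -0.44, SE 0.12), and Slc32a1, which loads it into vesicles, at 11.62 and 11.80 against 7.30 and 9.81 RPKM (-0.49, SE 0.17). Gad2 lay at 8.17 and 9.47 against 8.02 and 7.37 RPKM (-0.22, SE 0.10). For Gad1 and Gad2 the controls differed from each other more than control 1 did from KO. Leaving out 1 library at a time gave log2 fold changes from -0.59 to -0.26 for Gad1 and from -0.30 to -0.13 for Gad2. Beside Sst, the interneuron genes Nxph1, a neurexin ligand (8.82 and 9.83 against 7.64 and 6.71 RPKM, -0.40, SE 0.10), and Elfn1, a synaptic organiser of Sst interneurons (6.95 and 6.83 against 5.34 and 6.17 RPKM, -0.29, SE 0.11), lay below. Their 20-gene list as a whole was divided, with 7 positive and 11 negative of 18 tested, and its markers Reln and Calb2 overlapped between genotypes. Adjusted p-values of Gad1, Slc32a1, Gad2, Dlx1, Dlx2, Dlx5, Dlx6, Sp8, Sp9, Nxph1 and Elfn1 were 0.992 or above (edgeR).

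In cortex, the same genes lay nearer to 0 or above it. Log2 fold changes there were 0.07 for Gad1, 0.11 for Slc32a1, 0.11 for Dlx6, 0.18 for Sp8 and -0.03 for Sst. The difference of the KO effects (hippocampus minus cortex) was -0.49 for Sst (SE 0.13), -0.88 for Sp8 (SE 0.27), -0.51 for Gad1 (SE 0.17) and -0.52 for Dlx2 (SE 0.19). Each had an edgeR adjusted p = 1. These genes were picked by their hippocampus values, which favours a difference. Over all genes, 0 differences passed with edgeR (0%). The number was also 0 with DESeq2 and under each edgeR alternative that kept all 8 libraries, and it was not counted with limma. An unadjusted p under 0.05 was found for 158 differences (0.981%), 6 of which were in the list of interneuron transcription factors. Of the 4 genes that passed in hippocampus, Srrm4 (log2 fold change -1.71 in cortex, difference -0.51, SE 0.14), En2 (6.44, difference -1.59, SE 0.46), Napb (-0.52, difference -0.20, SE 0.11) and Hddc3 (1.31, difference -0.22, SE 0.16) had the same direction in cortex, and their differences did not pass, with edgeR adjusted p = 1 for each.

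**Figure D4:**
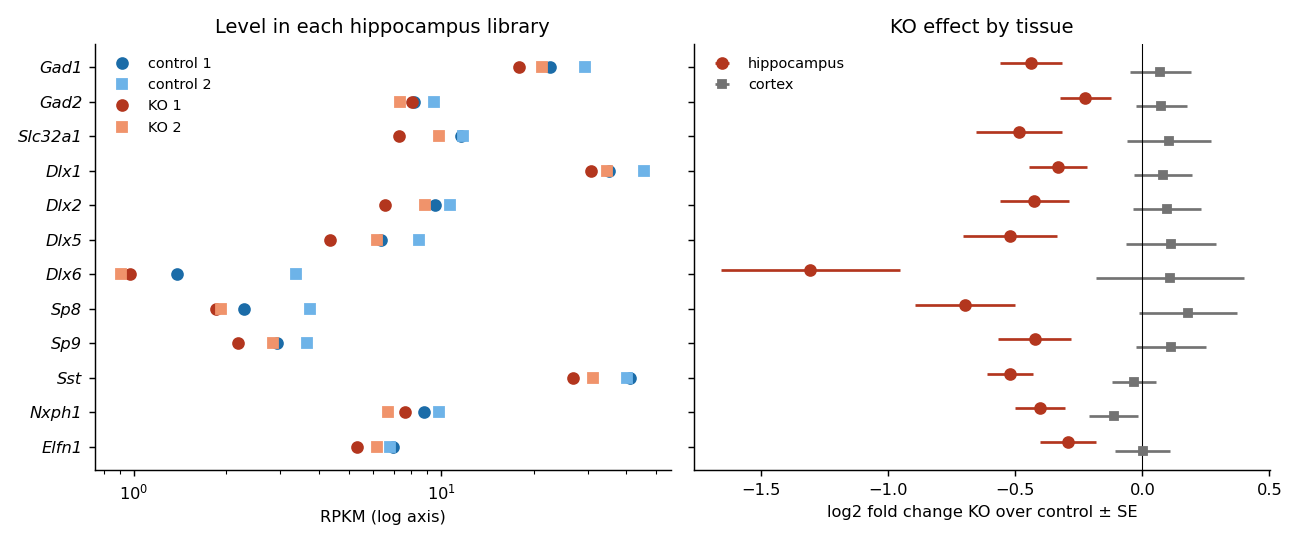
The left panel gives the RPKM of 12 interneuron genes in each hippocampus library on a log axis, and the right panel the log2 fold change of KO over control with its SE in hippocampus and in cortex. The 12 were picked among the lower genes of their lists, so that all lie below 0 in hippocampus by choice. In those lists, 2 of 18 transcription factors, 7 of 18 identity and migration genes and 2 of 9 GABA genes were positive. In cortex 10 of the 12 lie at or above 0, a contrast that the choice favours. Control 2 is the highest hippocampus library for the Dlx and Sp genes.

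For genes of the hippocampal principal neurons, the shares over all genes to compare with are again 13.3% above and 15.9% below. Of 22 transcription factors of the medial pallium and hippocampus, 12 were positive and 10 negative, 0 lay above or below, and log2 fold changes ran from -0.13 to 0.15, with medians of -0.12 in replicate 1 and 0.15 in replicate 2. Emx1, a dorsal pallium homeobox gene, lay at 44.87 and 41.36 RPKM in controls and 43.65 and 48.70 in KO. Of 16 dentate granule neuron genes, 0 lay above and 1 below, 0 had an unadjusted p under 0.05 and values ran from -0.22 to 0.10. Neurod1, which drives granule neuron differentiation, lay at 112.8 and 107.5 RPKM in controls and 100.7 and 128.9 in KO. Of 20 CA field genes, 9 were positive and 11 negative, and 2 lay above and 3 below. Their median was -0.10, but 0.05 without KO 1. Neurod6, a marker of pyramidal neurons, lay at 251.5 and 265.6 against 273.0 and 280.7 RPKM.

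Genes of Cajal-Retzius cells and intermediate progenitors had mostly positive values. Of 14 Cajal-Retzius genes, 11 were positive, 5 lay above and 1 below (median 0.12). Nhlh2 lay at 29.98 and 29.47 RPKM in controls and 34.69 and 35.99 in KO (log2 fold change 0.22, SE 0.07), and Trp73, a p53 relative that marks cells from the cortical hem, at 16.90 and 15.57 against 19.00 and 17.97 RPKM (0.16, SE 0.08). Ebf3, Barhl2 and Lhx1, further transcription factors of the list, had 0.26, 0.30 and 0.21 (SE 0.10, 0.13 and 0.12). Reln, the secreted glycoprotein of these cells, overlapped between genotypes (117.6 and 93.40 RPKM in controls, 131.3 and 100.5 in KO). Medians were 0.10 and 0.16 in the replicates, but 0.01 without control 2 and 0.24 without control 1. Of 15 intermediate progenitor genes, 11 were positive, 6 lay above and 0 below (median 0.09). Neurog2, a proneural factor, lay at 34.58 and 36.11 RPKM in controls and 39.95 and 46.53 in KO (0.26, SE 0.11), and Eomes, the defining factor of the class, at 40.68 and 39.71 against 44.08 and 43.01 RPKM (0.09, SE 0.07). Mfap4, Btg2, Mfng and Nhlh1 lay above as well. The median of intermediate progenitor genes was -0.03 in replicate 1, 0.18 in replicate 2 and 0.03 without control 2. Of 30 cell cycle genes, 11 were positive, 1 lay above and 9 below (median -0.02), with 4 positive and a median of -0.11 without KO 1 and 16 positive and a median of 0.05 without KO 2. Of 20 radial glia genes, 10 were positive, 4 lay above and 2 below (median -0.002), and the median was -0.10 without KO 1 and 0.10 without KO 2.

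Among other cell types, 15 of 18 microglia genes were positive, 9 lay above and 0 below (median 0.17, with 0.16 and 0.13 in the replicates). Complement genes C1qa, C1qb and C1qc had log2 fold changes of 0.19, 0.25 and 0.27 (SE 0.11, 0.13 and 0.13), and the lysosomal protease gene Ctss lay at 7.04 and 6.97 RPKM in controls and 9 and 8.91 in KO (0.32, SE 0.11). The microglia median was 0.12 without control 2 and 0.11 without KO 1, and in cortex it was 0.20. Of 14 genes of the oligodendrocyte lineage, 12 were negative. Olig2, the lineage's basic helix-loop-helix factor, lay at 9.27 and 8.98 RPKM in controls and 6.91 and 7.49 in KO (-0.37, SE 0.09), and Olig1 at 22.06 and 18.37 against 16.27 and 15.45 RPKM (-0.38, SE 0.13). Mog, a myelin gene, lay above (0.43, SE 0.13), and the median of that list was -0.31 without control 2 and 0.03 without control 1. In cortex the oligodendrocyte median was 0.03, against -0.17 in hippocampus with all libraries. Of 9 blood genes tested, 7 were positive, 4 lay above and 1 below (median 0.61, with 0.78 and 0.21 in the replicates). The median was 0.30 without KO 1, and in cortex it was 0.41. Blood genes were highest in KO 1, where the haemoglobin gene Hbb-bs lay at 232.9 RPKM against 102.8, 124.2 and 144.4 in control 1, control 2 and KO 2. Vessel and meningeal genes were negative for 18 of 20, with 0 above, 3 below and a median of -0.08, against 0.06 in cortex. Positive vessel and meningeal genes numbered 7 without KO 1, 9 without KO 2, and 3 without either control. The median was -0.06 without KO 1 and -0.06 without KO 2. Adjusted p-values of Ctss, Olig1, Olig2, Mog, Nhlh2, Neurog2 and Hbb-bs were 0.992 or above (edgeR).

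Genes of neighbouring regions, progenitor signals and tissue state were divided. Of 19 cortical hem and Wnt genes, 14 were positive, 3 lay above and 1 below (median 0.11, but 0.004 without KO 1 and 0.01 without control 2). The Wnt agonist gene Rspo3 lay at 12.28 and 11.26 RPKM in controls and 16.43 and 12.83 in KO (log2 fold change 0.28, SE 0.12). Early astrocyte genes were positive for 4 of 12, and Gja1, the gap junction gene, lay at 43.45 and 36.84 against 33.52 and 35.04 RPKM (-0.26, SE 0.11). Thalamic, septal and striatal genes (9 of 20 positive) and neocortical neuron genes (9 of 18) had 1 member above each, with 5 and 1 below. Choroid plexus genes were negative for 11 of 14, with a median of -0.53 that was 0.28 without control 2. Sex-linked genes had 4 positive and 4 negative members, with a median of 0.15 in replicate 1 and -2.41 in replicate 2. Immediate early genes (6 of 16 positive, median -0.04), hypoxia and stress genes (12 of 20, median 0.02) and nuclear respiratory chain genes (18 of 32, median 0.02) were spread about 0, and 0 members of the last pair of lists had an unadjusted p under 0.05.

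Lists of translation and of the mitochondrial genome were almost wholly positive. Of 76 cytosolic ribosomal protein genes, 75 were positive, 27 lay above and 1 below (median 0.16), and 0 passed. The median was 0.25 in replicate 1, 0.05 in replicate 2 and 0.04 without KO 1. Mitochondrially encoded genes were positive for 12 of 12, with medians of 0.31 and 0.03 in the replicates and -0.06 without KO 1. Short genes followed. In the quintile of genes with the shortest implied length (up to 1.57 kb), 57.6% were positive and the median was 0.04 in replicate 1 and 0.0009 in replicate 2, whereas in the fourth quintile (3.33 to 4.66 kb) 40.4% were positive, with medians of -0.04 and -0.003. By level, the quintile with the highest RPKM had 36.1% positive values, with medians of -0.06 in replicate 1 and -0.002 in replicate 2. These medians lay farther from 0 in replicate 1 than in replicate 2.

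**Figure D5:**
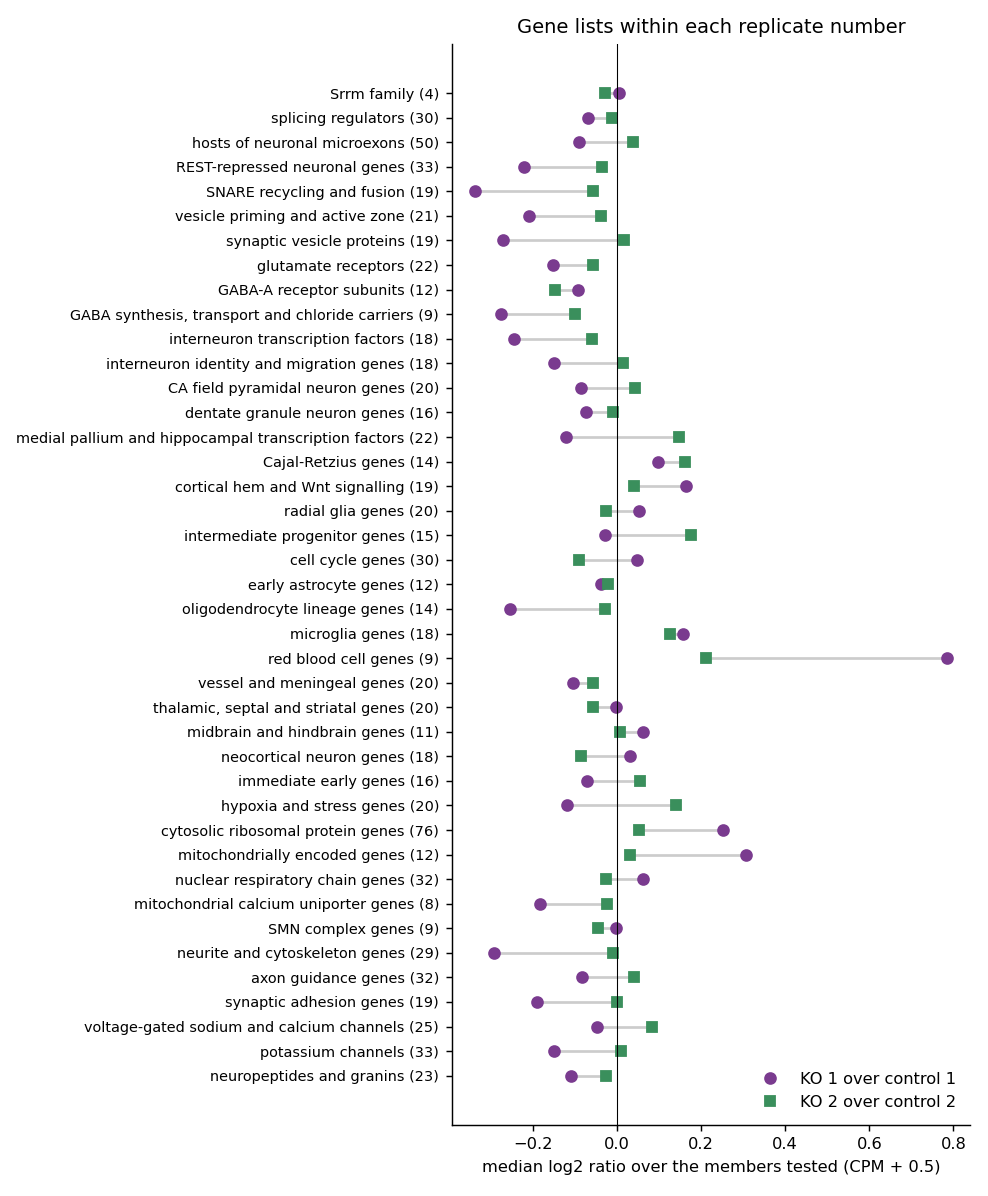
For 41 gene lists, with the number of members tested in brackets, points give the median log2 ratio of KO 1 to control 1 (circles) and of KO 2 to control 2 (squares). Sex-linked and choroid plexus genes are left out because their values exceed the axis. Synaptic, REST and neurite lists lie below 0 and ribosomal and mitochondrial genes above 0 mainly in replicate 1. Blood, microglia and Cajal-Retzius genes lie above 0 and GABA-A receptor subunits below 0 in both, blood genes farther in replicate 1.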

How the data were processed

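Messenger RNA of E18.5 hippocampus and cortex was sequenced from TruSeq libraries (labels' protocols). The submitters' notes on processing name Bowtie (version unstated) and mm9. The sources used here do not state how reads were assigned to genes and strands, so overlapping genes cannot be told apart. Each deposited table holds, per Ensembl gene ID, a count and an RPKM value made by the authors. RPKM is the authors' count scaled by gene length and table total. The RPKM column holds 1114 cells with the text "ne" in place of a number, treated as missing, and blank counts were read as 0. GENCODE M21 gave symbols for 20759 of 22667 IDs, gene order and exon sequences (GRCm38).

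The main test was edgeR 4.0.16 (R 4.3.3, TMM scaling, quasi-likelihood F test) on the authors' deposited counts of all 8 libraries in 4 groups, because 2 libraries a group leave few degrees of freedom. Genes past filterByExpr (minimum count 10, minimum total 15) were tested, two-sided, with Benjamini-Hochberg adjustment at 0.05. Ratios within a replicate number used log2(CPM + 0.5). "Above" and "below" mean that both KO libraries lay beyond both controls on TMM-scaled counts. Scripts were tested on simulated data. DESeq2 1.42.0, limma 3.58.1 and further settings were alternatives. Libraries of 1 genotype differed beyond counting error (chi-square over degrees of freedom of 49.2 for control and 63.3 for KO hippocampus). Both were counted as replicates, and whether their difference is biological or technical was not tested. The text names Srrm4, genes that passed, the 10 smallest p-values on each side, genes with at least 50 counts in 1 genotype and at most 3 in the other, neighbours of genes that passed and the leading, most abundant and first-named members of each list. Dlx5, Zbtb20 and the genes of printed microexons other than Mef2c were added after values were seen. Genes and lists (43 lists, 905 of 917 entries found) were chosen with earlier results of these data known. A gene that the naming rule includes is not reported here.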

Additional observations from a re-analysis of the deposited data

How the results depend on the processing

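Srrm4 and En2 passed under all 18 alternatives. The number of genes that passed in hippocampus, 4 in the fit of all 8 libraries, was 2 (Srrm4 and En2) from the 4 hippocampus libraries alone, 2 among genes with at least 1 RPKM in 2 libraries, 2 with limma on log2(RPKM + 1), and 18 (8 higher and 10 lower) with DESeq2. Leaving out each library gave from 2 to 7 genes. The 7 arose without hippocampus control replicate 1, when Dlx6, Isl1 and the choroid plexus genes Aqp1, Kcne2 and Tmem72, all highest in control replicate 2, passed with Srrm4 and En2. The replicate block gave 6 genes, adding Cldn34c1 (adjusted p = 0.00105) and Col11a1 (0.00962), with 1259 genes at an unadjusted p under 0.05 against 614, and 303 against 158 for the difference between tissues. Deviations of same-numbered libraries correlated over genes at 0.101 to 0.37 between groups (0.102 between hippocampus control and KO, and 0.341 and 0.37 between the tissues of a genotype). Y-linked CPM of same-numbered hippocampus and cortex libraries were close in control 1 (39.7 and 35.4), control 2 (148 and 144) and KO 2 (0.430 and 0.382), and less so in KO 1 (49.9 and 25.5). The labels do not say whether both tissues came from the same embryos, and a number coincides with 2 runs against 1, and the fit without the block treats the libraries as independent. Differences between the KO effects of hippocampus and cortex passed for 0 genes with DESeq2 and under each edgeR alternative that kept all 8 libraries. They were not counted with limma, and the 4 hippocampus libraries alone cannot give them. Of 43 lists, 14 had a positive median.

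Napb missed the threshold in 12 of the 18 alternatives and Hddc3 in 12. Of the 99 genes for which a fold change was computed under the alternatives, 95 kept their direction throughout. Many of the 99 were chosen by small p-values in these libraries, and most alternatives reuse all 4 hippocampus libraries, both of which favour this. The 4 genes that changed direction each did so when a library was left out. Ttr ranged from -2.58 to 0.88, Mef2c from -0.10 to 0.77, Hspb8 from -0.15 to 0.061 and Srrm3 from -0.0035 to 0.25 on the log2 scale. The median of 21 lists changed sign under at least 1 alternative. Total counts without composition scaling moved the share of positive values from 48.6% to 57.8%, and the median of all genes by less than 0.1. At these depths a gene needs 3 counts to be told from 0 (0.0244 to 0.0515 CPM). Leaving out KO replicate 2, which leaves KO 1 alone in its group and assumes that it varies like the other groups, gave 2301 genes with an unadjusted p under 0.05 against 614 with all libraries.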
